A study of Mus musculus with 4 samples.

Results

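The 10 genes studied here encode transcription factors of cerebellar granule neurons, and they were looked up in the list of RREB1-3V5 ChIP-seq peaks from mouse cerebellum. They were Neurod1, Neurod2, Atoh1, Barhl1, Barhl2, Pax6, Zic1, Zic2, Nfia and Nfib, chosen for their known roles in specifying granule neurons or in their differentiation. A gene was counted when the list named it as the gene nearest to a peak. By this rule 5 of the 10 genes had a row among the 1933 rows of the list, and the other 5 had none. Neurod1, Neurod2 and Barhl2 had a peak at the promoter, and Nfia and Nfib had a peak in an intron. Atoh1, Barhl1, Pax6, Zic1 and Zic2 had no row.

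The peaks came from 2 ChIP libraries made with a V5 antibody, each from 1 animal (1 female, 1 male). A further 2 input libraries were made from the chromatin of the same animals without precipitation, and the sources used here do not state whether peaks were called against them. All 4 samples were cerebella of mice aged 3 weeks that carried the transgene Tg(PCP2-Rreb1/3V5)20/J, and libraries from animals without the tagged protein were not analysed here. The transgene encodes the V7 form of RREB1 with 3 V5 epitope tags. The PCP2 promoter drives the transgene in Purkinje cells. By immunofluorescence for the V5 tag, the study reported expression of the transgene in these cells only. The lysate was made from the whole cerebellum. The peaks of both animals were merged into 1 list with neither a read count nor a peak height, so neither depth nor spread between animals is known, and no test between samples could be run. With no expression measured, the tissue could not be checked by its markers. Each of 1932 genes had 1 row, and 1 row named no gene. The peak numbers ran up to 3043, and 1110 of them (36.5%) had no row, so further peaks near a listed gene may lie among those numbers.

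Granule neurons are the small excitatory neurons of the cerebellar cortex, and their axons, the parallel fibers, form synapses on Purkinje cells. Their progenitors arise from the rhombic lip under the control of the basic helix-loop-helix (bHLH) factor ATOH1, and they then exit the cell cycle as factors such as NEUROD1 come on. PAX6, the BARHL homeodomain proteins, ZIC zinc finger proteins and nuclear factor I (NFI) proteins act along the same course. bHLH factors bind short sites called E-boxes, in which CA and TG flank a variable pair of bases. RREB1 is a zinc finger protein that was first described at Ras-responsive promoter elements.

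The sequences around the positions are shown because the results on motifs rest on them. Each runs 5′ to 3′ on the strand of the gene named, on GRCm38.p6, which has the coordinates of mm10, and E-boxes are in capitals. They cover 200 bp centered on the position, except that the one of Neurod2 stops before the transcribed sequence. The first 3 lie at promoters, and those of Nfia and Nfib in introns.
Neurod1, chr2:79456774-79456973, minus strand: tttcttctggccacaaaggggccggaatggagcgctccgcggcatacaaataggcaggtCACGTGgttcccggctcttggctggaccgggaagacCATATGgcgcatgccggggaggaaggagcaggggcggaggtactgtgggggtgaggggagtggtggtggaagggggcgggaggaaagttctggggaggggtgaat
Neurod2, chr11:98329649-98329746, minus strand: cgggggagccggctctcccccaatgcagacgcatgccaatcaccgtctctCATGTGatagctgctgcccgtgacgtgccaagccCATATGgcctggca
Barhl2, chr5:106458690-106458889, minus strand: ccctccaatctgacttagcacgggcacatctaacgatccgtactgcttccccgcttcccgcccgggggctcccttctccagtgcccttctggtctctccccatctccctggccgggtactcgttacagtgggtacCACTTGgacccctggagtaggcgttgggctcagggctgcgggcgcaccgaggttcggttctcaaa
Nfia, chr4:97772160-97772359, plus strand: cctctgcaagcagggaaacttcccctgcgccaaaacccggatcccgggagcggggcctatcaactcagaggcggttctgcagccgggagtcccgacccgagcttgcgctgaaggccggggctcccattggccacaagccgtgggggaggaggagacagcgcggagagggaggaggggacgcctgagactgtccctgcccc
Nfib, chr4:82404428-82404627, minus strand: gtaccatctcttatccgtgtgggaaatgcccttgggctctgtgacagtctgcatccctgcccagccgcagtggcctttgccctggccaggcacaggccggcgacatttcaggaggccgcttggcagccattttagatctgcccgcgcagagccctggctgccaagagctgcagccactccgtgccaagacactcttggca

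The 5 genes with a row were set against all protein-coding genes of the reference annotation. A row was found for 5 of the 10 factors (50.0%), against 1642 of 21887 protein-coding genes (7.50%). Assigned to the nearest start with predicted RefSeq models included, or with GENCODE M21, the listed positions fell to 3 of the 10 factors. The share of protein-coding genes under these annotations was not computed, and 7.50% is not its counterpart. A listed peak within 50 kb of a start belonged to 4 of the 10, against 5.83% of protein-coding genes. Within 5 kb the count was 3 of the 10, against 3.65%. The same 3 genes, Neurod1, Neurod2 and Barhl2, had a peak of the promoter class, against 2.91% of protein-coding genes. These shares are a description. The 10 genes were picked by hand with earlier results of these peaks known, and the number of chances a gene has to be the nearest one depends on its length and on the space around it.

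**Figure D1:**
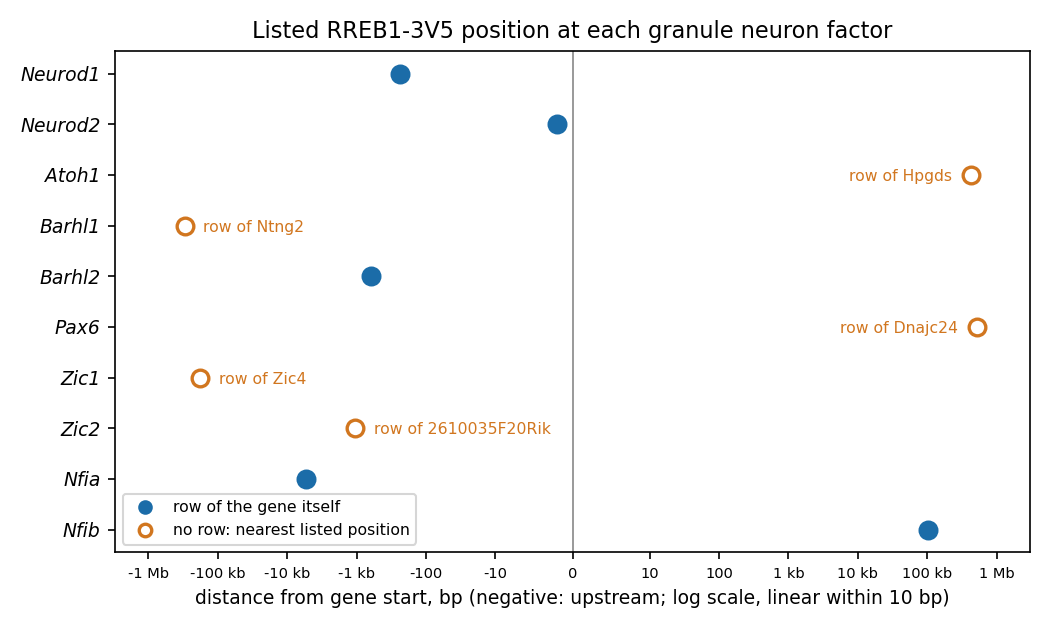
Distance of the listed RREB1-3V5 position from the transcription start of each granule neuron factor, in bp on a log axis that is linear within 10 bp of the start (negative is upstream). Filled points are the 5 genes with a row of their own, from 2 bp (Neurod2) to 101.251 kb (Nfib), and open points give the nearest position listed for another gene, which for Zic2 was 1.057 kb upstream and for the other 4 genes over 100 kb away.

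Among the bHLH genes, both NeuroD genes had a promoter peak and Atoh1 had none. NEUROD1 drives differentiation and survival of granule neurons. Neurod1 spans 4000 bp of chromosome 2, from 79452637 to 79456636 on the minus strand, and its peak (number 1580) was at 79456874, annotated as promoter-TSS, 238 bp upstream of the start. Promoter peaks were mostly closer than that, since 565 of the 671 rows of this class (84.2%) had a smaller distance. The row before it on the chromosome was that of Zfp385b, 1641 kb away, with 3 numbers without a row in between. The row after it was the promoter peak of Dnajc10, 858.5 kb away. With GENCODE M21 in place of RefSeq, the start of Neurod1 was 123 bp from the position and that of Cerkl, the neighboring gene, was 89 bp from it. The list alone therefore does not tell the promoter of Neurod1 from that of Cerkl.

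NEUROD2 is a close relative of NEUROD1 that is kept in mature neurons and is needed for the survival of granule neurons. Neurod2 lies on chromosome 11, from 98325415 to 98329645 on the minus strand, and its peak (number 520) was at 98329647, only 2 bp upstream of the start. Just 5 of the 671 promoter rows had a smaller distance, and 5, with Neurod2 among them, were at 2 bp. The nearest rows on either side were the promoter peak of B230217C12Rik, 488.4 kb before it with 1 number without a row in between, and an intronic peak of Krt24, 954.5 kb after it. In GENCODE M21 the same position was 1 bp inside the transcript. Of the 10 factors, Neurod2 had the listed position closest to its start.

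ATOH1 specifies the granule cell progenitors and is required for their formation. Atoh1 lies on chromosome 6, from 64729125 to 64731245 on the plus strand, and had no row. The nearest listed position, 428.1 kb downstream of its start, belonged to Hpgds. None of 15 further proneural and neuronal bHLH genes had a row either (0 of 15, against 7.50% of protein-coding genes).

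Among the homeobox genes, Barhl2 had a promoter peak, and Barhl1 and Pax6 had no row. BARHL1 and BARHL2 are homeodomain proteins that act downstream of ATOH1, and BARHL1 is needed for the migration and survival of granule cells. Barhl2 spans 5644 bp of chromosome 5, from 106452523 to 106458166 on the minus strand. Its peak (number 2213) was at 106458790, annotated as promoter-TSS, 624 bp upstream of the start. This was far out for the class, with 654 of the 671 promoter rows (97.5%) closer to a start. The row before it was an intergenic peak of Gm32921, 181.4 kb away, and the row after it an intronic peak of Tgfbr3, 820.6 kb away, with 1 number without a row in between. A predicted RefSeq gene, Gm33151, spans the position and starts 198 bp from it.

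Barhl1 lies on chromosome 2, from 28907680 to 28917984 on the minus strand, and the nearest listed position was an intronic peak of Ntng2, 301.4 kb upstream of its start. PAX6, a paired box and homeodomain protein, acts in granule cell precursors and in the growth of parallel fibers. Pax6 lies on chromosome 2, from 105668896 to 105698410 on the plus strand, and the nearest listed position was an intergenic one of Dnajc24, 512.9 kb downstream of its start. Barhl2 was thus the only one of these 3 homeobox genes with a listed position within 100 kb of its start.

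**Figure D2:**
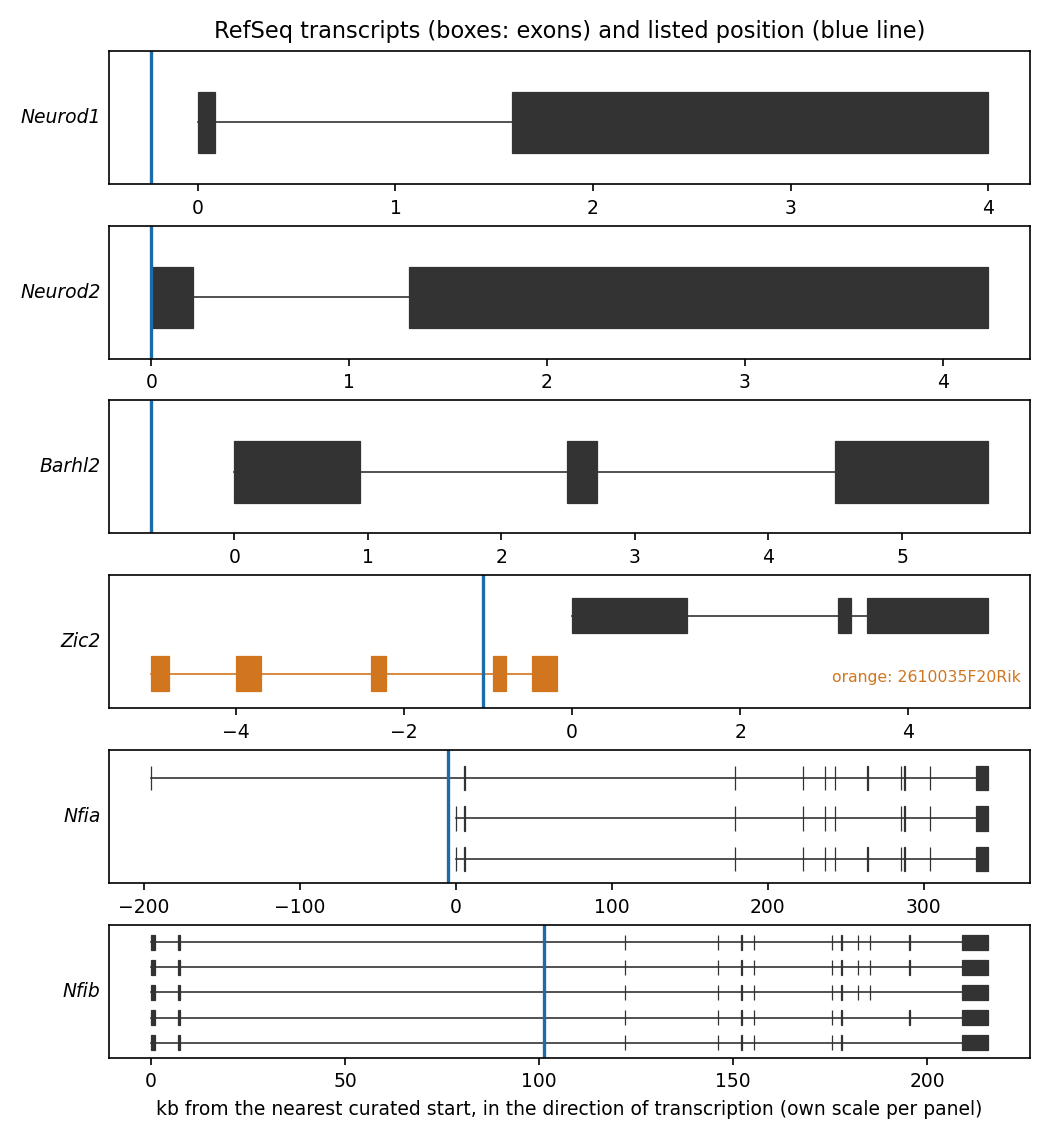
Curated RefSeq transcripts (boxes are exons) and the listed RREB1-3V5 position (blue line) at Neurod1, Neurod2, Barhl2, Zic2, Nfia and Nfib, in kb from the nearest curated start in the direction of transcription, each panel on its own scale. The position is just before the first exon of Neurod1, Neurod2 and Barhl2, inside the noncoding transcript of 2610035F20Rik (orange) and 1.057 kb before Zic2, 5.366 kb before the shorter transcripts of Nfia, and in a long intron of Nfib.

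The ZIC proteins are zinc finger factors of granule cell progenitors and of maturing granule neurons, and neither Zic1 nor Zic2 had a row. Near Zic2 the list nevertheless held a position. Zic2 lies on chromosome 14, from 122475384 to 122480328 on the plus strand, and the position was 1057 bp upstream of its start. The list named 2610035F20Rik, a noncoding RNA gene, as the nearest gene there, with an annotation of intron 2 of 4 of its transcript and a distance of 872 bp to its start. Zic2 was the only one of the 5 factors without a row that had a listed position within 50 kb of a start, and the nearest position to each of the other 4 was over 100 kb away. Counting any listed position within 50 kb, the factors were Neurod1, Neurod2, Barhl2, Nfia and Zic2, which is again 5 of the 10. The share of protein-coding genes by this looser rule was not computed, so the count has no background beside it.

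Zic1 lies on chromosome 9, from 91358058 to 91365768 on the minus strand. The nearest listed position was 91547329 (number 2973), 181.6 kb upstream of Zic1, in an intergenic row of Zic4, the gene that neighbors Zic1 in opposite orientation. The list gave it as 178.4 kb from the start of Zic4. It is counted for Zic4 and not for Zic1.

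The NFI proteins, which bind paired recognition elements, control the maturation of granule neurons, including the extension of axons and dendrites. Both Nfia and Nfib are long genes on chromosome 4 and both peaks were intronic. Nfia spans 540.8 kb on the plus strand, from 97578066 to 98118876, and is longer than 99.1% of protein-coding genes. Its peak (number 1990) was at 97772260, in intron 1 of 10 of the longest transcript, 5366 bp upstream of the start shared by the other 2 curated transcripts and 190.3 kb downstream of the start of the longest. Of the 631 intronic rows, 17.7% were closer to a start. The row before it was the promoter peak of Jun, 2720 kb away, and the row after it an intronic peak of Patj, 847.2 kb away. Predicted RefSeq transcripts of Nfia start much nearer, 188 bp from the position, and a GENCODE M21 transcript starts 474 bp from it, both downstream. The position is therefore 5366 bp from a start or within 500 bp of one, depending on the annotation. The intronic class depends on it too, since no GENCODE M21 transcript of Nfia spans the position.

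Nfib spans 216.6 kb on the minus strand, from 82290173 to 82506751, and is longer than 95.9% of protein-coding genes. Its peak (number 1974) was at 82404528, in intron 2 of 11, 101251 bp downstream of the start that its 5 curated transcripts share. That was far for an intronic row, since 84.3% of those were closer to a start. Other genes start nearer in both further annotations, 2310067E19Rik at 93704 bp with predicted RefSeq models and n-R5s188 at 34882 bp in GENCODE M21, although Nfib spans the position in each. The nearest rows were the promoter peak of Gm11264, 338.6 kb before it, and an intergenic peak of Sh3gl2, 2759 kb after it, with 1 number without a row in between. Intronic rows as a whole were most often in intron 1 (236 of 631, 37.4%) and next in intron 2 (100, 15.8%), and belonged to long genes, with a median length of 78.7 kb (interquartile range 27.3 to 200.0 kb, 534 genes) against 17.2 kb for all protein-coding genes.

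The sequence around the 5 positions was rich in G and C. It held 63.5% at Neurod1, 67.0% at Neurod2, 63.0% at Barhl2, 68.5% at Nfia and 62.0% at Nfib, over 200 bp. The median of the promoter class was 61.0% (interquartile range 57.0 to 65.5%), so Neurod1 and Barhl2 were inside its middle range and Neurod2 was above it. Intronic rows had a median of 54.0% (50.5 to 57.0%), and both Nfia and Nfib were above that range. The windows held 11 CpG dinucleotides at Neurod1, 18 at Neurod2, 13 at Barhl2, 14 at Nfia and 8 at Nfib. The ratio of observed to expected CpG was 0.599 at Nfia and 0.420 at Nfib, against 0.672 to 0.814 in the promoter windows of the factors.

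Short motifs were searched on both strands in the same windows, and a match is a stretch of letters and not a shown binding site. The letters CATCTG are an E-box that NeuroD factors bind, called the NeuroD E-box here, and their reverse complement was counted with them. Whether NeuroD factors bind other E-boxes in these windows was not tested. They were found in 678 of the 1932 windows (35.1%), in 8.79% of the promoter class, in 49.1% of the other classes and in 9.53% of windows at the starts of protein-coding genes. None of the 5 factors had them, neither the 3 at promoters nor the 2 in introns. In windows of 400 bp they appeared at Neurod1, 108.5 bp from the position, and at Neurod2, 113.5 bp from it. Within 1 kb of a start they were found for 4 of the 5 factors with a row and 2 of the 5 without, against 70.7% of the starts of protein-coding genes. A factor was counted if any of its curated starts had a match, whereas the share is of single starts. The count and the share thus differ in unit.

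Any E-box, CANNTG, was found at 3 of the 5 positions, namely Neurod1, Neurod2 and Barhl2, against 71.2% of all windows and 48.6% of the promoter class. The Neurod1 window held CACGTG, centered 37.5 bp upstream of the position, and CATATG, centered 1.5 bp upstream of it. In the Neurod2 window CATGTG was centered 46.5 bp upstream of the position and CATATG 12.5 bp upstream. The Barhl2 window had CACTTG, centered 38.5 bp downstream. No E-box was found in the windows of Nfia and Nfib.

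The E-box with the letters CATATG was looked at after the windows had been read. Of the 5 windows of 200 bp, it was in those of Neurod1 and Neurod2 only. It was found in 177 of all windows (9.16%), in 13.6% of those outside the promoter class, in 1.26% of windows at the starts of protein-coding genes and in 5 of the 671 promoter windows (0.745%). Neurod1 and Neurod2 were therefore 2 of 5 promoter rows with this box, beside 1700110K17Rik, Phactr3 and Ttbk1. Around the box they shared the letters CCATATGGC, which were in 27 of all windows (1.40%), in 2 promoter windows (0.298%), which were theirs, and in 5 of 21258 windows at starts (0.0235%). The box was read in these 2 genes first and then counted, so the counts describe the pattern and test nothing. Within 1 kb of a start CATATG was found for Neurod1, Neurod2 and Nfia, and also for Atoh1 and Pax6, which had no row. That is 3 of the 5 factors with a row and 2 of the 5 without. Of single starts of protein-coding genes, 26.7% had it, a share per start and not per gene.

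**Figure D3:**
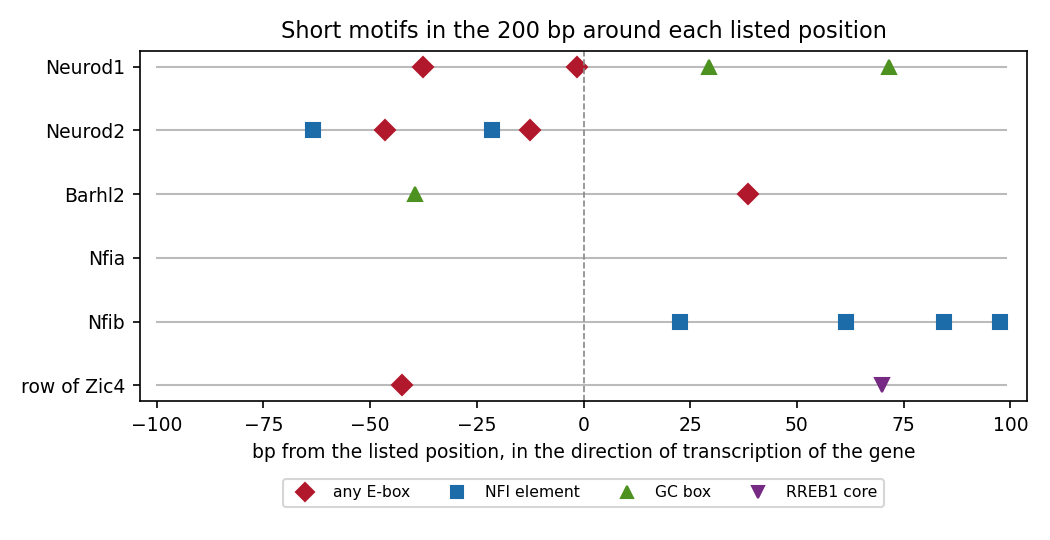
Places of motifs in the 200 bp around each listed position, in bp from the position in the direction of transcription of the gene, for the 5 factors and the row of Zic4. An E-box sits 1.5 bp upstream of the position at Neurod1 and 12.5 bp upstream at Neurod2, and Nfib has 4 NFI elements (squares) between 22.5 and 97.5 bp downstream.

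The letters TTGGCA are a single NFI recognition element, of which a full NFI site holds a pair. They were found in 483 of all windows (25%) and in 58 of the promoter class (8.64%). Outside the promoter class the share was 33.7%, and 208 of the 631 intronic windows had a match. The Nfib window held 4 matches, at 22.5, 61.5, 84.5 and 97.5 bp downstream of the position, and it was the only one of the 1932 windows with 4. Neurod2 had 2, at 63.5 and 21.5 bp upstream of the position. At least 2 were found in 87 windows (4.50%), 4 of them of the promoter class and 36 of them intronic. Nfia had no match. The count per window was made after the matches had been seen. These are counts of single elements, and whether any of them form the pair of a full site was not tested.

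The letters CCACCCC, the core of the element through which RREB1 was first described, were found in none of the 5 windows, against 7.61% of all windows and 10.8% of starts. GC boxes, GGGCGG, had 2 matches at Neurod1 and 1 at Barhl2. Promoter rows as a whole had one in 51.0%, against 41.6% of starts. The homeodomain letters TAATTA were in none of the 5 windows and in 5.90% of all windows.

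**Figure D4:**
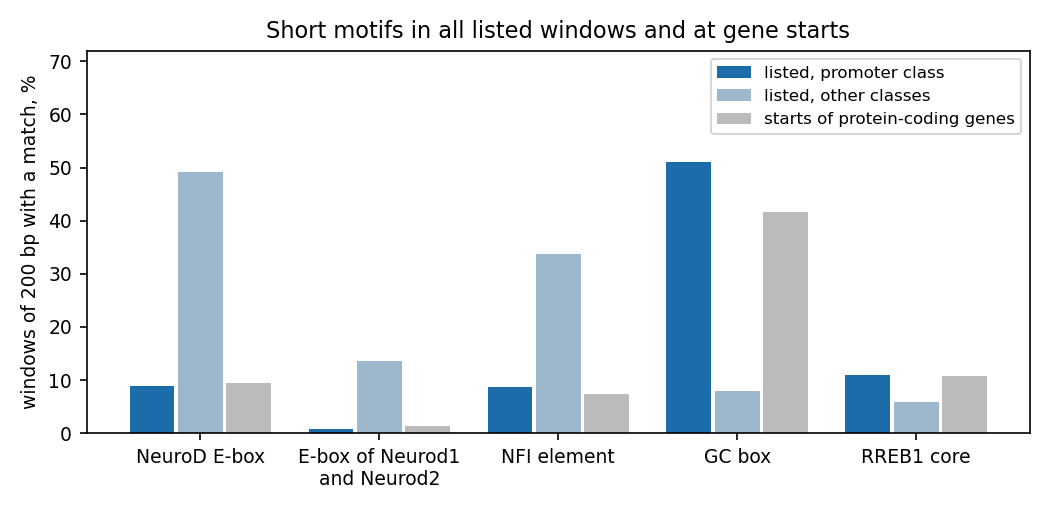
Share of 200 bp windows with a motif, in percent, for listed positions of the promoter class (671), listed positions of other classes (1261) and starts of protein-coding genes (21258). The NeuroD E-box and the E-box found at Neurod1 and Neurod2 were in 8.79% and 0.745% of promoter class windows, against 49.1% and 13.6% of windows of the other classes.

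The 10 factors stood beside 50 other genes from 4 lists. The lists held 15 bHLH relatives, 9 E protein, Id and Hes genes, 5 Zic and NFI genes and 21 further granule lineage factors. Of the 50 genes, 6 had a row (12.0%), against 7.50% of protein-coding genes, and 2 had a promoter peak, against 2.91%. Of the 21 granule lineage factors, 4 had a row (19.0%). Tcf3, which encodes the bHLH partner protein E2A, had a promoter peak 386 bp upstream with the NeuroD E-box, and was the only one of 9 E protein, Id and Hes genes with a row. Sox4, Mycn and Etv1 had intergenic peaks at 6.006 kb, 37.0 kb and 533.7 kb from a start. Of 5 other Zic and NFI genes, Zic4 had a row.

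Of 27 genes on a list for granule neuron differentiation, 11 had a row (40.7%, against 7.50% of protein-coding genes). This share is a description too, since the list was chosen with earlier results of these data known. Gene length and the space around a gene, which affect the count, were not matched. Cbln3, a secreted granule neuron protein of the cerebellin family, had the only promoter peak, 113 bp upstream. Bdnf, a neurotrophin gene, and Gabrd, which encodes a GABA receptor subunit of granule neurons, had peaks within 5 kb, at 1.083 kb and 1.181 kb. The other 8 were Calb2, Ptch1, Tiam1, Rbfox3, Cntn2, Ntf3, Grm4 and Fat2, with peaks 6.877 to 50.0 kb from a start. Of the 11 windows, 7 held the NeuroD E-box, against 49.1% of windows outside the promoter class, to which all but that of Cbln3 belonged. Genes for factors of Purkinje cells, in which the transgene is expressed, had 1 row of 16 (6.25%, against 7.50% of protein-coding genes). That row was Esrrg, in an intron 127.9 kb from a start. This list holds factors and not differentiation genes, so it differs from the list before it in kind of gene as well as cell type.

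**Figure D5:**
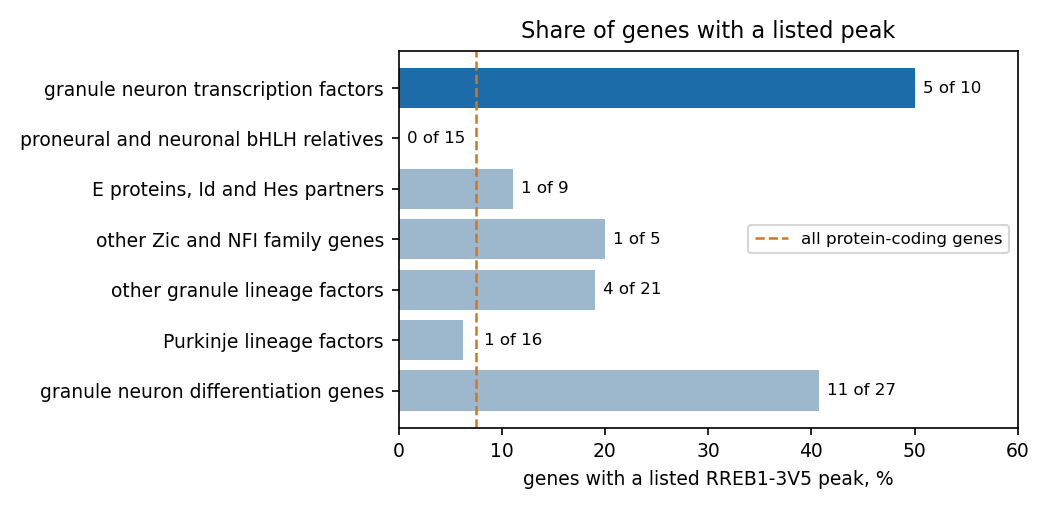
Share of genes with a listed RREB1-3V5 peak, in percent, in each list, with the count written beside each bar and the share of all protein-coding genes (7.50%) as a dashed line. The granule neuron transcription factors (5 of 10) and granule neuron differentiation genes (11 of 27) have the longest bars, and the bHLH relatives (0 of 15) have none.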

How the data were processed

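RREB1-3V5 ChIP-seq libraries and inputs of 2 cerebella were processed by the authors, who used fastp for trimming, Bowtie2 for alignment to mm10, filtered reads with Sambamba, called peaks with MACS3 and merged overlapping peaks with bedtools. Bowtie2, MACS3, bedtools and mm10 are also in the submitters' processing notes. The header of the deposited table names annotatePeaks of HOMER. Their versions were not given in the sources used here. In the deposited table are positions, peak numbers, annotations and signed distances in bp, without count, score or width, so the precision of a peak could not be estimated.

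Rows were matched by gene name with pandas 2.3.3 and numpy 2.4.6 in python 3.11.15, sequences were read from GRCm38.p6 with pysam 0.24.0 and samtools 1.23.1, and figures were drawn with matplotlib 3.10.9. RefSeq starts gave the gene of the table for 1847 of the 1932 rows on assembled chromosomes (95.6%) and the identical distance for 1799. Motifs were searched in 200 bp around each position, on both strands. Shares were compared with all protein-coding genes or with windows at their starts, with no test. Scripts were tested on simulated data. The 10 genes and all lists were chosen with earlier results of these data known. Genes named were the 10 factors, their neighbors in the list, the genes of positions within 50 kb of a factor without a row and, of each list, those with a promoter peak and up to 4 others with the nearest peak. The other genes of the differentiation list, and those that share the E-box, were named beyond this rule to account for each row counted. A listed gene with a promoter peak and the sequence at 1 position are not reported here. Alternatives were other annotations, distance limits, windows and motifs.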

Additional observations from a re-analysis of the deposited data

How the results depend on the processing

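The count of 5 factors with a row was the same by the Entrez numbers of the table and by the nearest curated RefSeq start. It was 4 for peaks within 50 kb, 5 for any listed position within 50 kb of a start (with Zic2 and without Nfib), 3 within 5 kb and 3 for the promoter class. Shares of protein-coding genes were not computed for the count of any listed position, nor for the 2 further annotations. The 2 further annotations, added after the data were seen, each gave 3. With predicted RefSeq models included, these were Neurod1, Neurod2 and Nfia. With GENCODE M21, they were Neurod2, Barhl2 and Nfia, since Cerkl was nearest to the Neurod1 position. Barhl2 was lost to Gm33151 with predicted models, and Nfib to 2310067E19Rik there and to n-R5s188 with GENCODE M21. The NeuroD E-box was found in 0 of the 5 windows of 200 bp, in 0 with 100 bp or with a longer motif, and in 2 with 400 bp. Any E-box gave 3, and CATATG, added after the data were seen, gave 2. The distance of Neurod2 changed sign, with 1 bp inside the transcript in GENCODE M21 in place of -2 bp, while that of Nfia was -188 bp with predicted models and -474 bp with GENCODE M21. No paired analysis was possible because the merged list carries no value of a single library, and for the same reason neither animal could be left out. Depth and peak height are unknown, which limits every statement to the presence or absence of a row.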

Other observations

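At the Nfia position GENCODE M21 places a transcript of E130114P18Rik and none of Nfia, and at the Neurod1 position it places Gm26755. The Zic4 row had a window with 46.0% G and C, lower than all but 8.59% of listed windows, and held CATATG 42.5 bp upstream of the position and the RREB1 core on the other strand 70.0 bp downstream. The core was in none of the windows of the factors. The longest run of letters shared by the windows of Neurod1 and Neurod2 was CGCTCCGCGGC, which was in 2 of the 1932 windows, namely theirs. The run was searched for in these 2 windows, so its count tests nothing. At Neurod2 it lies in the part of the window that is not printed. In all listed windows CATCTG was densest near the position, with 3.19 matches per kb within 25 bp, 1.92 from there to 100 bp and 0.756 beyond that to 500 bp. CATATG had 0.559, 0.462 and 0.224 matches per kb over the same distances.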
